A study of Homo sapiens with 8 samples.

Results

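The 10 genes described here are ATF4, a transcription factor of the integrated stress response, and 9 genes that it is known to activate. DDIT3, TRIB3 and CHAC1 belong to the stress branch. ASNS makes asparagine. PHGDH, PSAT1 and PSPH catalyse the serine synthesis pathway, and SHMT2 and MTHFD2 pass its product into the mitochondrial folate cycle. They were taken by symbol from the 27936 genes with an Entrez identifier in the count tables, all 10 were found, and all 10 passed the filter on low counts with 14455 genes in all. They were measured by RNA-seq in 8 libraries from HEK293, an established line grown from cells of an embryonic kidney. TIP60, the lysine acetyltransferase encoded by KAT5, was the target in the 4 libraries labelled knock-out (KO), whose genotype label reads HEKg1/C9, and the 4 control libraries carry the label HEKg1. In both arms 2 libraries carry the guide label sgRNA1 and 2 the label sgRNA2. What the control guides target and what the genotype labels stand for are not given. All cells received doxycycline at 1 µg/ml for 3 days to induce the guide RNAs and were grown with 10% serum and 2 mM GlutaMAX, a stable form of glutamine. The labels do not say whether libraries of a group were separate cultures, so p-values measure only the spread between these libraries.

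In the integrated stress response, kinases that sense a shortage of amino acids, unfolded protein, double-stranded RNA or a lack of haem phosphorylate the translation factor eIF2. General translation then falls while the ATF4 protein is made more efficiently from its existing mRNA, so the ATF4 mRNA level is not a measure of the ATF4 protein level. ATF4 binds, with partners of the C/EBP family, to composite elements in the promoters of genes for amino acid supply and stress, and several of these targets feed back on the response. Neither protein nor eIF2 phosphorylation was measured.

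Total counts ran from 3723992 to 18841774, and the shallowest library was control sgRNA1 replicate 2. KAT5 mRNA ranged from 18.0 to 20.2 CPM (counts scaled by library size and TMM factors) with the KO label and from 44.5 to 49.0 CPM in controls, a log2 fold change of -1.32 ± 0.064 (SE, edgeR quasi-likelihood test with Benjamini-Hochberg adjustment over all genes, adjusted p = 6.71e-13). On the opposite strand, RNASEH2C covers 38.6% of the KAT5 exons in GENCODE v29. Counts at mitochondrially encoded genes made up 2.32 to 2.50% of the KO and 1.46 to 3.27% of the control libraries. Of 8 kidney-lineage and general epithelial-mesenchymal markers used for this line, PAX8 was under 1 CPM everywhere and 3 of 7 tested were higher and 1 lower in KO libraries. Their summed level was 607 to 632 CPM in KO and 559 to 657 in control libraries. VIM, a general marker, led the sum with means of 252 CPM in KO and 311 CPM in control libraries. The summed level of 4 endothelial markers was 2.78 to 3.79 CPM in KO and at most 0.404 in control libraries, led by KDR with means of 2.10 and 0.130 CPM, while PECAM1, CDH5 and VWF stayed under 1 CPM. The 5 leukocyte markers summed to 1.40 to 2.04 CPM against 0.565 to 1.08, led by CD14, with PTPRC, CD3E and LYZ under 1 CPM. Summed levels of 5 fibroblast (16.5 to 21.8 against 12.6 to 22.3 CPM) and 4 carcinoma epithelium markers (27.9 to 30.5 against 27.9 to 34.8) overlapped between the arms, and those of 4 hepatocyte markers were at most 0.594 CPM in KO and 0.0690 in control libraries. The part of these differences in the results below was not tested.

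The promoters of the members were searched for TGATGNAA, a core of the C/EBP-ATF response element through which ATF4 acts, on both strands from 250 bases before to 50 bases after each RefSeq start (GRCh38.p14). No other motif was searched. Of the 10 members, 8 had a promoter in the RefSeq table, and 2 of these 8, ASNS and CHAC1, held the motif. It was present in 2.79% of the 11414 tested genes with a promoter and in 3.62% of all 35116 windows. The stretches shown are all the matches found in the windows of the members. Whether the motif bears on the changes below was not tested. The capitals mark the match. The ASNS match starts 68 bases before the start (chr7:97872458-97872487, minus strand), in 1 of the 2 promoters listed for ASNS, and the CHAC1 match, in the reverse orientation, starts 209 bases before the start (chr15:40953251-40953280, plus strand).
ASNS: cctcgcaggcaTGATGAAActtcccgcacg
CHAC1: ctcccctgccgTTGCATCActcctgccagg
A match is a description of the letters and not a measured binding site. PHGDH, MTHFD2, PSAT1, DDIT3, TRIB3 and ATF4 had no match in their windows. PSPH and SHMT2 are not in the promoter table.

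In KO libraries the members moved apart. By the edgeR fit, CHAC1, DDIT3 and ASNS rose by 1.54-fold to 2.57-fold and ATF4 itself rose by 1.09-fold. PSPH, PHGDH and SHMT2 fell to 0.801, 0.835 and 0.888 of the control level by the same fit. TRIB3, PSAT1 and MTHFD2 did not pass the test. At an adjusted p under 0.05, 4 of the 10 members were higher and 3 lower, while among all 14455 genes 31.8% were called higher and 31.2% lower (63.0% in either direction). Of the members, 3 were called with a change of at least 1.5-fold, against 21.2% of all tested genes. The 4 KO and 4 control libraries did not overlap in CPM for 6 of the 10 members, against 52.9% of all tested genes. The median log2 fold change of the members was 0.025 and that of all tested genes 0.0068. These counts lie near the shares of all genes and are no result about the members as a group. In such bulk RNA, a change in the share of cells that express a gene and a change in RNA per cell cannot be told apart.

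**Figure D1:**
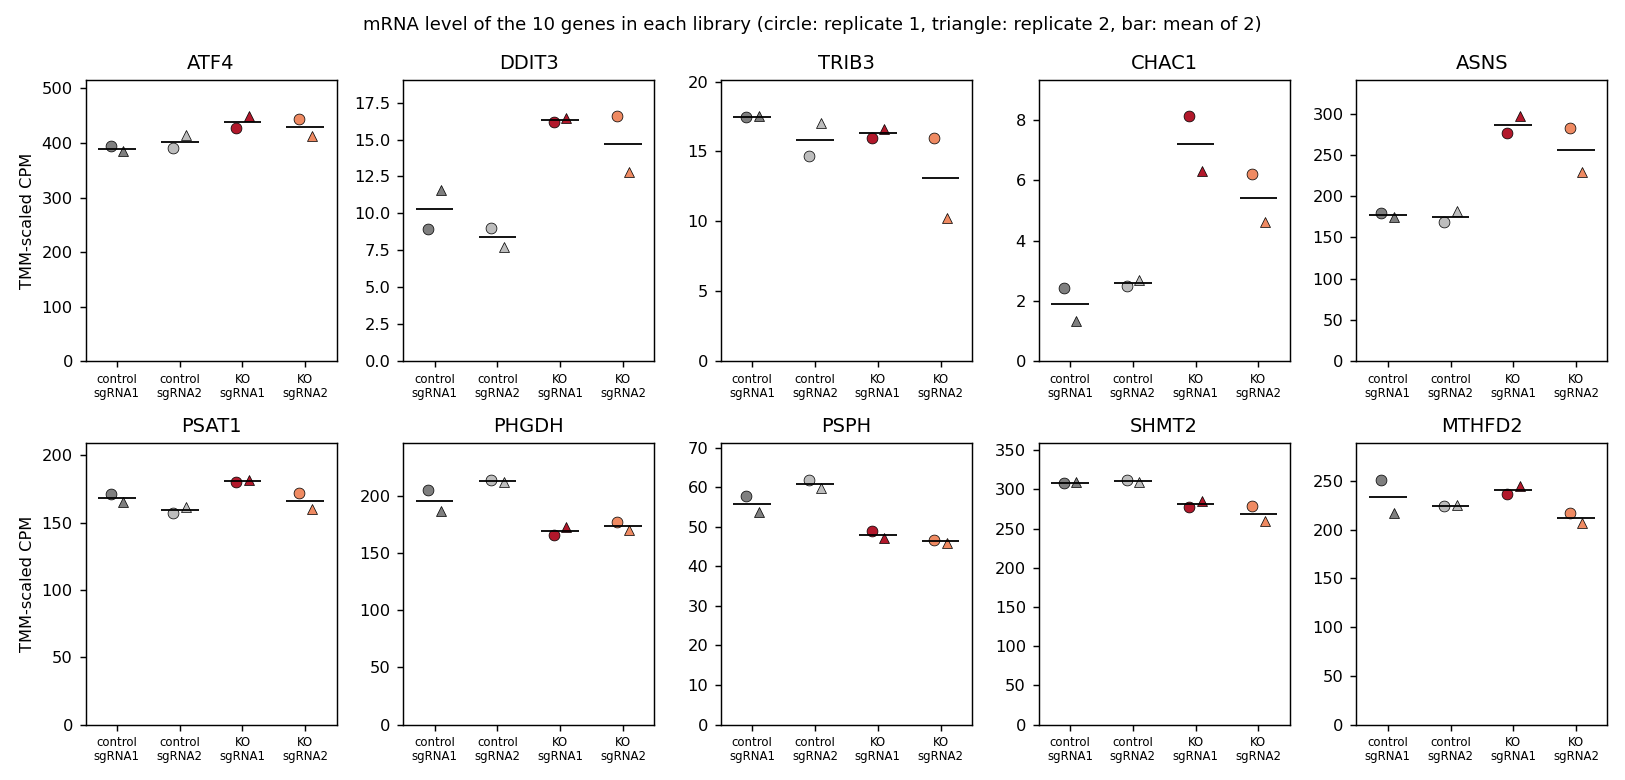
TMM-scaled CPM of each of the 10 genes (vertical axes, all from 0) in the 8 libraries, grouped by arm and guide number on the horizontal axes, with circles for replicate 1, triangles for replicate 2 and bars for the mean of the 2. For CHAC1, DDIT3 and ASNS every KO library lies above every control library, and for PHGDH, PSPH and SHMT2 every KO library lies below.

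ATF4 (gene ID 468, chromosome 22, 39520559 to 39522686, GRCh38) was the most abundant of the 10 per unit of transcript length. Its level was 427 and 449 CPM in KO sgRNA1, 444 and 414 in KO sgRNA2, 394 and 385 in control sgRNA1 and 390.0 and 414 in control sgRNA2. With sgRNA1 both KO libraries were above both controls, while the lower KO and the higher control library of sgRNA2 were at the same level. The log2 fold change over all libraries was 0.13 ± 0.044 (SE, 95% interval 0.038 to 0.22, edgeR adjusted p = 0.0145), from 396 ± 12.6 (SD, n = 4) to 433 ± 16.003 CPM. This call was the only 1 of the 7 to depend on a single library. It was lost without KO sgRNA1 replicate 2 (0.10, adjusted p = 0.0943), without KO sgRNA2 replicate 1 (0.11, adjusted p = 0.0669) and without control sgRNA2 replicate 1 (0.12, adjusted p = 0.0625), with an adjusted p of 0.00202 to 0.0943 over 17 alternatives.

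DDIT3 (gene ID 1649, chromosome 12, 57516588 to 57520517) encodes CHOP, a transcription factor that promotes cell death when stress persists. It stood at 16.2 and 16.5 CPM in KO sgRNA1, 16.6 and 12.8 in KO sgRNA2, 8.96 and 11.6 in control sgRNA1 and 9.04 and 7.73 in control sgRNA2. The lowest KO library, sgRNA2 replicate 2, was still above the highest control library, which was the shallowest one and held 43 counts of the gene. The log2 fold change was 0.79 ± 0.11 (SE, edgeR adjusted p = 2.27e-06). In GENCODE v29, genes on the other strand cover 31.6% of the exonic bases of DDIT3 and a gene on its own strand 8.03%, and the strand setting of the counting is not given.

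CHAC1 (gene ID 79094, chromosome 15, 40953471 to 40956512), an enzyme that breaks down glutathione and a marker of the stress branch, had the largest change of the 10. It had 8.11 and 6.31 CPM in KO sgRNA1, 6.22 and 4.63 in KO sgRNA2, 2.42 and 1.35 in control sgRNA1 and 2.48 and 2.68 in control sgRNA2. All KO libraries were above all controls, and the log2 fold change was 1.36 ± 0.19 (SE, 95% interval 0.97 to 1.75, edgeR adjusted p = 2.47e-06). It was also the least abundant member, with 413 counts over the KO arm and 104 over the control arm, and only 5 of these lay in the shallowest library. Without that library the log2 fold change was 1.26 (adjusted p = 8.31e-06), and with all counts thinned to the depth of that library it was 1.86. Over 17 alternatives it ran from 1.24 to 1.86. The thinning was a random draw that was not repeated, so its own spread is not known.

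TRIB3 (gene ID 57761, chromosome 20, 380760 to 397559), a pseudokinase that binds ATF4 and dampens it, was not called. Its level was 15.99 and 16.6 CPM in KO sgRNA1, 15.99 and 10.3 in KO sgRNA2, 17.4 and 17.5 in control sgRNA1 and 14.7 and 17.0 in control sgRNA2. Of the KO libraries, 3 lay within the range of the controls, and KO sgRNA2 replicate 2 lay far below all others. The log2 fold change was -0.18 ± 0.11 (SE, 95% interval -0.41 to 0.052, edgeR adjusted p = 0.168). That low library decided the value: without it the log2 fold change was -0.045 (adjusted p = 0.681), and without its partner, KO sgRNA2 replicate 1, it was -0.32 (adjusted p = 0.0165). Within each library, DDIT3 was 2.26 to 2.85 times as abundant as TRIB3 per unit of length in KO and 1.03 to 1.51 times in control libraries. For CHAC1 over TRIB3 the ratio was 0.702 to 0.939 in KO and 0.142 to 0.313 in control libraries. These ratios, picked after the values were seen, do not depend on the scaling between libraries, and neither overlapped between the arms.

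ASNS (gene ID 440, chromosome 7, 97851677 to 97928441), which makes asparagine from aspartate and glutamine, was at 277 and 297 CPM in KO sgRNA1, 283 and 229.9 in KO sgRNA2, 179 and 174 in control sgRNA1 and 169 and 182 in control sgRNA2. The control libraries lay close together and all KO libraries lay above them, with KO sgRNA2 replicate 2 again the lowest. The log2 fold change was 0.62 ± 0.057 (SE, 95% interval 0.50 to 0.74, edgeR adjusted p = 9.28e-09), the smallest adjusted p among the 10. Without KO sgRNA2 replicate 2 it was 0.69 (adjusted p = 1.17e-10). A gene on the same strand shares 44.6% of the 4455 exonic bases of ASNS in GENCODE v29. The deposited gene length is 2526 bases, so whether that stretch was counted is not known. If it was, reads in it may have been split or dropped by the counting.

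**Figure D2:**
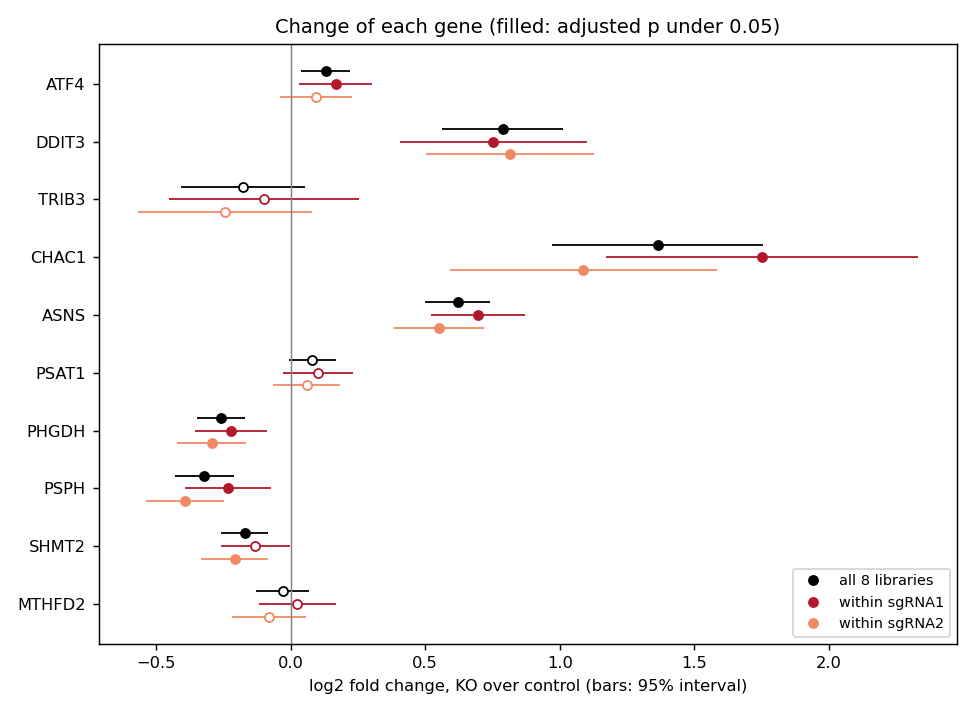
Log2 fold change of KO over control (horizontal axis) for each gene, over all 8 libraries and within each guide number, with 95% intervals as bars and filled points for an adjusted p under 0.05. CHAC1, DDIT3 and ASNS lie right of 0 and PHGDH and PSPH left of 0 in all 3 comparisons, while the intervals of TRIB3, PSAT1 and MTHFD2 include 0.

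None of the 3 serine synthesis enzymes was called higher, except PSAT1 when libraries were scaled by their totals alone. PHGDH (gene ID 26227, chromosome 1, 119711934 to 119744215) catalyses the first and committed step, the oxidation of 3-phosphoglycerate. It was at 166 and 173 CPM in KO sgRNA1, 177 and 170.2 in KO sgRNA2, 205 and 186 in control sgRNA1 and 214 and 212 in control sgRNA2. All KO libraries were below all controls, and the log2 fold change was -0.26 ± 0.043 (SE, edgeR adjusted p = 2.53e-05).

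PSAT1 (gene ID 29968, chromosome 9, 78297125 to 78330093), the aminotransferase of the middle step, was at 181 and 182 CPM in KO sgRNA1, 172 and 160.3 in KO sgRNA2, 172 and 165 in control sgRNA1 and 157 and 162 in control sgRNA2. The arms overlapped, the KO sgRNA1 libraries being the highest and a control sgRNA2 library the lowest. Its log2 fold change was 0.080 ± 0.042 (SE, 95% interval -0.0073 to 0.17, edgeR adjusted p = 0.103). Scaled by library totals alone it passed (0.11, adjusted p = 0.0178).

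PSPH (gene ID 5723, chromosome 7, 56011064 to 56051444), the phosphatase of the last step, stood at 48.9 and 47.0 CPM in KO sgRNA1, 46.7 and 46.0 in KO sgRNA2, 57.7 and 53.9 in control sgRNA1 and 61.9 and 59.7 in control sgRNA2. It fell by 0.32 ± 0.052 on the log2 scale (SE, edgeR adjusted p = 2.12e-05) without overlap between the arms. Of the 3 enzymes of 1 linear pathway, 2 fell and 1 did not pass the test. Within each library PSAT1 was 1.19 to 1.38 times as abundant as PHGDH per unit of length in KO and 0.931 to 1.12 times in control libraries, and 5.12 to 5.68 times as abundant as PSPH in KO against 3.74 to 4.50 times in control libraries. Neither ratio, both picked after the values were seen, overlapped between the arms. PSAT1 and PSPH have named pseudogenes (4 and 1), as do ATF4 (4) and ASNS (5), that were not among the entries counted, and reads shared with them may have been counted or dropped.

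The mitochondrial enzymes showed small differences. SHMT2 (gene ID 6472, chromosome 12, 57229711 to 57234935), which splits serine into glycine and a one-carbon unit, was at 277 and 286 CPM in KO sgRNA1, 279 and 259 in KO sgRNA2 and between 308 and 312 in all 4 control libraries. No KO library reached the controls, and the log2 fold change was -0.17 ± 0.042 (SE, edgeR adjusted p = 0.00138). MTHFD2 (gene ID 10797, chromosome 2, 74198615 to 74217565), which oxidises the folate-bound unit, was at 236 and 245 CPM in KO sgRNA1, 217 and 207 in KO sgRNA2, 251 and 216 in control sgRNA1 and 224 and 225 in control sgRNA2. The arms overlapped, although with sgRNA2 both KO libraries lay under both controls, and the log2 fold change was -0.030 ± 0.047 (SE, 95% interval -0.13 to 0.069, edgeR adjusted p = 0.600), which turned to 0.0040 (adjusted p = 0.944) when libraries were scaled by their totals alone. The ratio of MTHFD2 to SHMT2 within a library, also picked after the values were seen, was 0.975 to 1.07 in KO and 0.878 to 1.02 in control libraries and overlapped between the arms. Genes on the other strand cover 33.2% of the exonic bases of MTHFD2 and 9.51% of those of SHMT2. MTHFD2 has 7 named pseudogenes, of which MTHFD2P1 was counted and held 3 counts over all libraries.

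Scaled by transcript length, the order of the members differed between the arms. In control libraries the mean RPKM (TMM-scaled CPM per kilobase of the deposited gene length) was 195 for ATF4, 108 for SHMT2, 100.2 for MTHFD2, 72.7 for PSAT1, 71.6 for PHGDH, 69.6 for ASNS, 17.6 for PSPH, 7.36 for DDIT3, 5.77 for TRIB3 and 1.43 for CHAC1. Over the 4 control libraries the ranges of SHMT2 and MTHFD2, of PSAT1 and PHGDH and of PHGDH and ASNS overlapped, and those of the other neighbours did not. In KO libraries ASNS stood at 107 ± 11.5 RPKM (SD, n = 4), PSAT1 at 77.0 ± 4.40 and PHGDH at 60.0 ± 1.68. The RPKM ranges of these 3 genes, which overlapped in control libraries, stood apart in KO libraries. The ratio of ASNS to PHGDH within a library was 1.53 to 1.94 in KO and 0.891 to 1.06 in control libraries. That of ASNS to PSAT1 was 1.28 to 1.47 against 0.932 to 1.00. Both ratios were picked after the values were seen and restate the changes of the single genes. How often other pairs of genes separate in this way was not counted. The ranges of CHAC1 (4.05 RPKM) and TRIB3 (5.10 RPKM) overlapped in KO but not in control libraries.

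**Figure D3:**
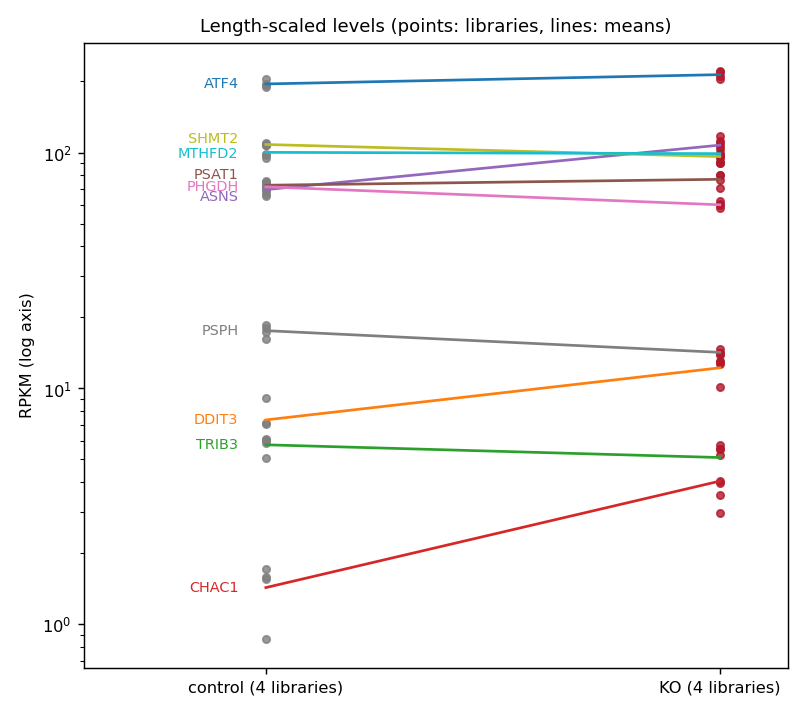
RPKM of the 10 genes on a log axis in the 4 control and the 4 KO libraries, with points for libraries and lines between the means of the arms. ASNS, PSAT1 and PHGDH start together at 69.6 to 72.7 RPKM in control libraries and spread to between 60.0 and 107 in KO libraries.

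The comparison was repeated within each guide number. Within sgRNA1, 4 members were higher (ATF4, DDIT3, CHAC1 and ASNS) and 2 lower (PHGDH and PSPH), against 24.3% and 23.3% of all tested genes (47.6% either way), and 3 were called with at least 1.5-fold, against 19.1%. Within sgRNA2, 3 were higher (DDIT3, CHAC1 and ASNS) and 3 lower (PHGDH, PSPH and SHMT2), against 25.7% and 25.4% (51.2% either way), and 2 were called with at least 1.5-fold, against 19.6%. For ATF4 the log2 fold change was 0.17 ± 0.065 (SE, edgeR adjusted p = 0.0403) with sgRNA1 and 0.095 ± 0.063 (adjusted p = 0.222) with sgRNA2. For SHMT2 it was -0.13 ± 0.061 (adjusted p = 0.0851) with sgRNA1, where it was called with no filter (-0.16, adjusted p = 0.0316), and -0.21 ± 0.059 (adjusted p = 0.00688) with sgRNA2. The ATF4 call with sgRNA1 was lost in 8 of 16 alternatives. These were the fit with no filter (0.14, adjusted p = 0.0667), the replicate block (0.17, adjusted p = 0.0700), and the fits without either KO sgRNA1 library, without control sgRNA1 replicate 2, and without KO sgRNA2 replicate 1 or either control sgRNA2 library (adjusted p = 0.0522 to 0.299). The SHMT2 call with sgRNA2 was lost without KO sgRNA2 replicate 2 (adjusted p = 0.0943) and without control sgRNA2 replicate 1 (adjusted p = 0.0667). For neither gene did the difference between guides pass the test of the difference itself, taken as sgRNA2 minus sgRNA1, which gave -0.073 ± 0.090 for ATF4 and -0.076 ± 0.085 for SHMT2.

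No member was called for the difference between guides by edgeR (smallest unadjusted p = 0.103, for CHAC1), and of all 14455 tested genes 0% were called, with 638 at an unadjusted p under 0.05. DESeq2 likewise called 0 genes, with 192 at an unadjusted p under 0.05. Without control sgRNA1 replicate 1, control sgRNA1 replicate 2 or KO sgRNA2 replicate 1, edgeR called 25, 23 and 3 genes, in each case with 0 members among them. At an unadjusted p under 0.05 there were 3 members without KO sgRNA2 replicate 1 (CHAC1, TRIB3 and ASNS) and 1 without control sgRNA1 replicate 1 (MTHFD2). The widest interval belonged to CHAC1, whose log2 fold change was 1.75 ± 0.28 (SE) with sgRNA1 and 1.09 ± 0.24 with sgRNA2, a difference of -0.66 (95% interval -1.47 to 0.15). With 1 library left out this difference ran from -1.35, without control sgRNA1 replicate 1, to -0.47, without KO sgRNA1 replicate 1, and with thinned counts it turned to 0.86. For DDIT3 the changes were 0.75 ± 0.17 and 0.81 ± 0.15, with an interval of the difference from -0.41 to 0.54. For ASNS they were 0.70 ± 0.083 and 0.55 ± 0.079, with an interval from -0.38 to 0.099. Those of PHGDH were -0.22 ± 0.063 and -0.29 ± 0.060, and those of PSPH -0.23 ± 0.076 and -0.39 ± 0.069. The calls within sgRNA1 rested on a pair that includes the shallowest library. Without control sgRNA1 replicate 1, which leaves the shallowest library alone with a spread assumed like that of the other groups, DDIT3 (0.50, adjusted p = 0.129), PHGDH (-0.14, adjusted p = 0.151) and PSPH (-0.16, adjusted p = 0.270) were no longer called within sgRNA1. Without KO sgRNA1 replicate 1, PHGDH (adjusted p = 0.0973) and PSPH (adjusted p = 0.0525) were lost there too, and PSPH also without KO sgRNA1 replicate 2 (adjusted p = 0.102). With all libraries kept, DESeq2 did not call PSPH there (adjusted p = 0.0897), and thinned counts called neither PHGDH (adjusted p = 0.0596) nor PSPH (adjusted p = 0.261).

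KO sgRNA2 replicate 2 stood below the other KO libraries for most members. It was the lowest of the 4 KO libraries for 9 of the 10 genes, the exception being PHGDH. Its partner, KO sgRNA2 replicate 1, was higher for all 10 genes, by 1.55-fold for TRIB3, 1.33-fold for CHAC1, 1.29-fold for DDIT3 and 1.23-fold for ASNS, and the median gap over the members was 0.10 on the log2 scale. Over all tested genes the median gap between these libraries was 0.00036 with its sign and 0.10 without it, so a gap of the members' median size is usual for a single gene of this pair. The gaps of TRIB3, CHAC1, DDIT3 and ASNS were wider than that. This comparison covers the size of a gap and not the direction that the members shared. The share of all tested genes that were lowest in this library was not counted, so the counts of members are descriptions only. In KO sgRNA1, control sgRNA1 and control sgRNA2, replicate 1 was the higher one for 2, 7 and 4 of the 10 genes. With that library left out, the log2 fold changes were 0.86 for DDIT3, 1.49 for CHAC1 and 0.69 for ASNS, against 0.79, 1.36 and 0.62 with all libraries.

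**Figure D4:**
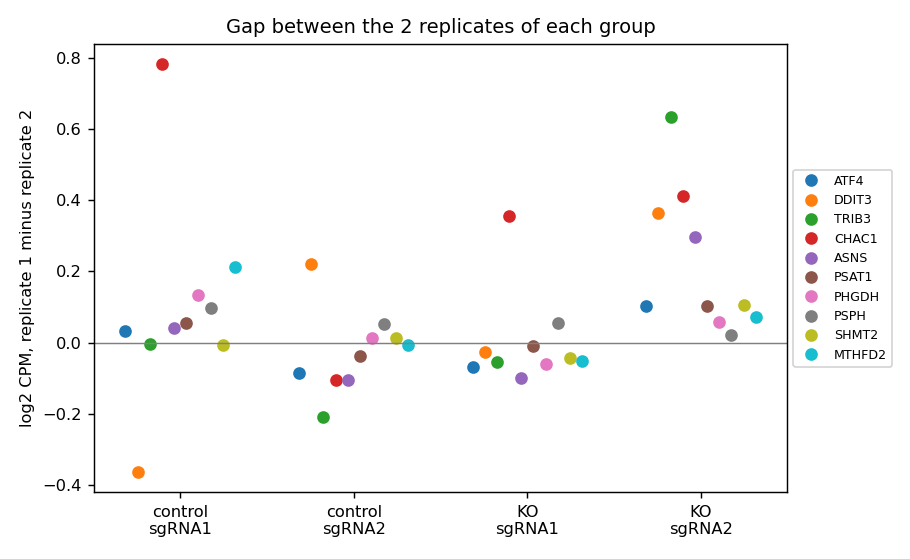
Log2 CPM of replicate 1 minus replicate 2 (vertical axis) for each of the 10 genes in the 4 groups (horizontal axis). All 10 points lie above 0 in KO sgRNA2, with TRIB3 the farthest, and the points lie on both sides of 0 in the other groups.

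Upstream of ATF4, the eIF2 kinases, their activators, the eIF2 and eIF2B subunits and the eIF2 phosphatase regulators rose in 4 and fell in 7 of 18 cases (median log2 fold change -0.067). Among all tested genes 31.8% were called higher and 31.2% lower, so these counts are no result about the list as a group. Both genes whose products direct the dephosphorylation of eIF2, which ends the response, rose. PPP1R15A, the stress-induced one, went from 16.9 ± 1.66 to 33.4 ± 5.60 CPM (SD, n = 4, log2 fold change 0.93 ± 0.10, SE), and PPP1R15B, the constitutive one, from 174 ± 5.65 to 236 ± 10.3 CPM (0.43 ± 0.042). EIF2S3, a subunit of eIF2, fell from 659 ± 27.8 to 483 ± 15.1 CPM (-0.45 ± 0.046), and the kinase for double-stranded RNA EIF2AK2 fell by 0.36 ± 0.051 on the log2 scale. The kinases for unfolded protein, EIF2AK3 (PERK, 0.50 ± 0.070), and for amino acid shortage, EIF2AK4 (GCN2, -0.36 ± 0.052), changed in opposite directions, and so did the eIF2B subunits, of which EIF2B2 rose (0.24 ± 0.060) and EIF2B4 (-0.34 ± 0.061) and EIF2B5 (-0.12 ± 0.049) fell. These 5 were named after their values were seen. The EIF2B5 call was lost without KO sgRNA1 replicate 1, KO sgRNA2 replicate 1 or either control sgRNA2 library (adjusted p = 0.0644 to 0.154) and by DESeq2 (adjusted p = 0.0765).

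Among partners of ATF4 and other stress response genes, 5 of 13 tested rose and 3 fell (median 0.15). Shares over all tested genes were 31.8% and 31.2%. ATF3, a repressor and activator that ATF4 and many other signals induce, rose from 38.4 ± 2.95 to 225 ± 53.2 CPM (log2 fold change 2.53 ± 0.12, SE). SESN2, which restrains mTORC1 when leucine is short, rose from 38.3 ± 2.76 to 83.1 ± 5.63 CPM (1.10 ± 0.060). The C/EBP partners CEBPG (0.57 ± 0.057) and CEBPB (0.75 ± 0.10) rose as well. GDF15, a secreted stress signal, rose by 1.21 ± 0.31 from 43 counts over the control arm. The genes that fell were ATF5 (-0.30 ± 0.068), a relative of ATF4, the translation repressor EIF4EBP1 (-0.18 ± 0.055) and TXNIP (-0.48 ± 0.15). GDF15 and these 3 were named after their values were seen, and all 4 calls were lost with counts thinned to the smallest library (adjusted p = 0.0758 to 0.217). EIF4EBP1 was also lost without control sgRNA1 replicate 1 (adjusted p = 0.0564). FGF21 had too few counts to be tested.

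Of 9 amino acid transporters tested, 3 rose and 2 fell (median 0.11), against 31.8% and 31.2% of all tested genes. SLC1A4, a carrier of serine and alanine, went from 16.6 ± 1.06 to 32.7 ± 3.35 CPM (log2 fold change 0.96 ± 0.084, SE), and SLC3A2, the heavy chain shared by several carriers, rose by 0.22 ± 0.043. SLC7A5, a light chain that carries leucine, rose by 0.21 ± 0.045 and was named after its values were seen. The glutamine carriers SLC1A5 (-0.25 ± 0.043) and SLC38A1 (-0.32 ± 0.045) fell. SLC7A3 was not tested for lack of counts.

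Other enzymes of serine, glycine and folate metabolism rose in 2 and fell in 6 of 16 cases (median -0.093). Over all tested genes the shares were 31.8% and 31.2%. MTHFD1L, the mitochondrial formate enzyme, went from 97.1 ± 2.97 to 63.2 ± 3.23 CPM (log2 fold change -0.62 ± 0.048, SE), and its cytosolic counterpart MTHFD1 from 271 ± 12.005 to 191 ± 4.34 CPM (-0.51 ± 0.042). The mitochondrial serine carrier SFXN1 (-0.39 ± 0.047) and the thymidylate synthase TYMS (-0.25 ± 0.043) fell too. Among those that rose was ALDH1L2, which oxidises formyl-folate in mitochondria (0.96 ± 0.18, from 115 counts over the control arm), named after its values were seen.

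Enzymes of proline, aspartate, alanine and transsulfuration rose in 3 and fell in 4 of 9 cases (median 0.050). The shares of all tested genes were 31.8% and 31.2%. PYCR1, which makes proline in mitochondria, fell from 31.5 ± 4.04 to 14.96 ± 1.53 CPM (log2 fold change -1.05 ± 0.089, SE), and ALDH18A1, the enzyme before it, fell by 0.35 ± 0.043 on the log2 scale. CTH, which makes cysteine from cystathionine, rose from 14.4 ± 2.81 to 26.5 ± 3.61 CPM (0.93 ± 0.10). CBS, the enzyme before CTH, had a log2 fold change of -1.34 ± 0.27 from 78 counts over the control arm. The cytosolic and mitochondrial aspartate aminotransferases GOT1 (0.17 ± 0.047) and GOT2 (-0.13 ± 0.039) changed in opposite directions, and both calls were lost with thinned counts (adjusted p = 0.0722 and 0.538). The choice to name CBS, GOT1 and GOT2 was made with their values known.

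Of 6 genes of the other arms of the unfolded protein response, 5 rose and 1 fell (median 0.61). The endoplasmic reticulum genes HERPUD1 (1.01 ± 0.075), HSPA5 (0.64 ± 0.051), the sensor ERN1 (1.02 ± 0.11) and the sensor ATF6 (0.43 ± 0.050) rose. The chaperone partner DNAJB9 rose by 0.58 ± 0.094, and the transcription factor XBP1 fell by 0.15 ± 0.054 on the log2 scale (adjusted p = 0.0218), both named after their values were seen. The XBP1 call was lost without KO sgRNA2 replicate 2 (adjusted p = 0.124) and without control sgRNA2 replicate 2 (adjusted p = 0.1003). For all 6 lists the background is the same, with 31.8% of tested genes called higher, 31.2% called lower and a median of 0.0068.

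**Figure D5:**
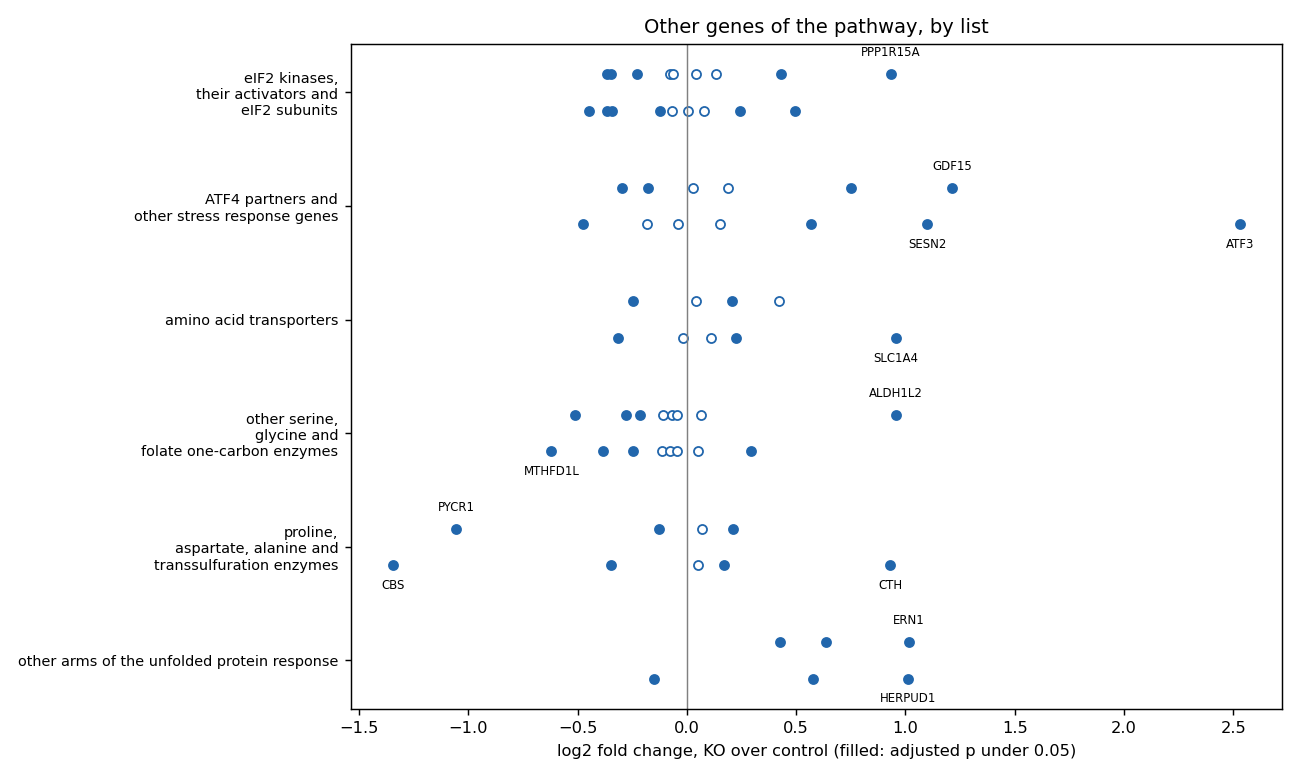
Log2 fold change of KO over control (horizontal axis) for each tested gene of the 6 pathway lists (rows), with filled points for an adjusted p under 0.05 and names for the genes farthest from 0. ATF3, at 2.53, lies farthest right, PYCR1 and CBS lie farthest left at -1.05 and -1.34, and each list holds genes on both sides of 0.

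Over the 8 libraries, the log2 CPM of ATF4 was most like that of DBR1 (Pearson r = 0.99), ORMDL1 (0.99), STX3 (0.99), C3orf38 (0.97) and TRIM38 (0.97) among the tested genes. The mean of the standardised profiles of the 10 members, which averages genes that rose and genes that fell, was most like NET1 (0.98), KIFBP (0.97), TEX9 (0.95), ZBTB8B (0.91) and DHX32 (0.90). These are descriptions over 8 points that share arms, guides and libraries.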

How the data were processed

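Gene counts were taken from 8 libraries of stranded poly(A) RNA sequenced as 80 bp paired reads, per the labels' protocols. The values the authors deposited are raw counts per gene, 1 table per library, made with featureCounts on hg38 per the submitters' processing notes. The other quantity, which per the file headers is the gene length in bases, was the same in all 8 tables. The aligner, the annotation release and the strand setting are not given in these sources. Of 28395 entries, 459 without a gene ID (0.0284 to 0.0425% of counts) were left out. Symbols and positions came from RefSeq (GRCh38.p14), which matched 27744 of 27936 genes, and exon overlaps from GENCODE v29. The deposited gene lengths differ from the exonic lengths in GENCODE, so the overlap shares may not apply to the bases counted.

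Genes were kept by filterByExpr (minimum count 10, minimum total 15). KO and control were compared with edgeR 4.0.16 (quasi-likelihood F test, TMM) adjusting for guide number (residual df 5). Changes within guides and their difference used 1 mean per group (residual df 4). Benjamini-Hochberg adjustment ran over every gene tested. The SE is the log2 fold change divided by the root of F. Fits were tested on simulated data.

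Alternatives were DESeq2 1.42.0, its size factors in edgeR, library totals alone, no filter, a stricter filter (4 libraries with CPM of 1 or more), a robust fit, counts thinned to the smallest library, a replicate block, no guide term, and each library left out. Thinning was a random draw that was not repeated, so values from it carry an unmeasured spread of their own. The members and lists were chosen with earlier results of these data known. Genes named are the members, KAT5, up to 4 genes per list with the smallest p, and the 5 most like ATF4 and the members' mean. Genes marked in the text as named after their values were seen, and the ratios, are exceptions. A few list genes are not reported here.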

Additional observations from a re-analysis of the deposited data

Results flagged for a closer look

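Among the 4 libraries of each arm, 20 sets of 4 CPM values were examined for a library far from the other 3 by Dixon's ratio at its 95% critical value, and 2 were found, where chance gives about 1 in 20. Both lie in KO sgRNA2 replicate 2. The sets share the same libraries and are not independent, so the number found cannot be judged against that rate. DDIT3 was at 12.8 CPM there and at 16.2 to 16.6 in the other KO libraries. TRIB3 was at 10.3 CPM there and at 15.99 to 16.6 in the other KO libraries.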

How the results depend on the processing

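Of the 10 members, 6 (DDIT3, CHAC1, ASNS, PHGDH, PSPH and SHMT2) kept their direction and their call in KO against control under all 17 alternatives. So did 31 of 39 named pathway genes under every alternative in which they were tested. CBS, which is among the 31 and had few counts, was tested in only 16 of the 17. The other 8 were GDF15, ATF5, EIF4EBP1, TXNIP, GOT1, GOT2 and EIF2B5, each lost with thinned counts, and XBP1, lost with library totals alone and with no guide term. EIF2B5 was also lost with library totals alone, by DESeq2 and with the stricter filter. For MTHFD2 the log2 fold change turned to 0.0040 with library totals alone, and within sgRNA1 to -0.0037 with no filter. For the difference between guides, thinning turned CHAC1 to 0.86 and PSAT1 to 0.093. The number of members called lower within sgRNA1 was 1 by DESeq2, 0 with thinned counts and 3 with no filter, where SHMT2 was called, in place of 2, and 0 to 2 with 1 library left out.

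With 1 library left out, the ranges for the log2 fold changes that changed sign were -0.072 to 0.15 for MTHFD2 within sgRNA1, -0.63 to 0.017 for TRIB3 within sgRNA2, and, between guides, -0.15 to 0.31 for DDIT3, -0.52 to 0.12 for TRIB3 and -0.093 to 0.0069 for PSAT1. Over all genes the difference between guides was called for 25 genes without control sgRNA1 replicate 1, for 23 without control sgRNA1 replicate 2 and for 11 with no filter, in each case for 0 members. The cause was not tested.

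No effect shared by same-numbered libraries was seen. Deviations from the group means of same-numbered KO and control libraries correlated at 0.015 (sgRNA1) and 0.028 (sgRNA2) over genes. With so few libraries per group, this cannot settle whether they were prepared in pairs. With a replicate block the members called in KO against control were again 4 higher and 3 lower, all genes called were 4527 higher and 4453 lower, and ATF4 within sgRNA1 was no longer called (0.17, adjusted p = 0.0700). Depth limits genes with few counts, such as CHAC1 with 5 in the shallowest library, and thinning to that depth ended the calls of 7 of the pathway genes named above and of PHGDH and PSPH within sgRNA1.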
